A study of Homo sapiens with 4 samples.

Results

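RNA recovered with an antibody against RBM39 was compared with the starting RNA of the same Huh7 culture, the one labelled shRBM39. The comparison sets 1 library of immunoprecipitated RNA (IP) against 1 library of input RNA. It covers every feature of the raw count table that reached 10 counts or more in any 2 of the study's 4 libraries, which were 19210 of 56303 features. Huh7 is an established line of human hepatocellular carcinoma, a cancer of the liver's parenchymal cells. Per the labels, the culture received a plasmid encoding a short hairpin RNA against RBM39, given to lower RBM39, and the other culture of the study is labelled shControl. Each of those cultures gave 1 input and 1 IP library, and nothing in the labels sets them apart other than the hairpin. Whether the hairpin lines were clones or pools was not given in the sources used here. Per the labels' protocols, the precipitation followed a commercial RNA immunoprecipitation kit. The study's stated question was which mRNAs bind RBM39 in hepatocellular carcinoma cells with and without its knockdown.

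RBM39 is a nuclear RNA-binding protein with an arginine- and serine-rich region and RNA recognition motifs. It is related to the large subunit of U2AF, works with U2AF and SF3B1 where the spliceosome recognises the 3′ end of an intron, and also acts as a coactivator of transcription factors of the AP-1 and nuclear receptor families. RNA immunoprecipitation collects RNA that is held by a protein directly or through its partners, so a transcript is called recovered above its input level when its share of the IP exceeds its share of the input. No IP with a control antibody was analysed here, so binding to RBM39 and recovery by any other route cannot be told apart.

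The targeted gene was read first. RBM39 (chr20:35701347-35742260 on GRCh38) had 8701 counts in the input and 46798 in the IP of shControl cells, and 8053 in the input and 91929 in the IP of shRBM39 cells. After scaling by library size this was 403, 1035, 370 and 2219 counts for each 1000000 counts of the library (CPM). Series of 4 values below keep this order. The shRBM39 input was thus only slightly below the shControl input, by 0.13 on the log2 scale (95% counting interval of the log2 ratio −0.17 to −0.08), and RBM39 mRNA was highest in the shRBM39 IP. RBM39 protein was not measured in these files. shRBM39 and shControl are therefore used below as names of libraries and not as measured states of RBM39. RBM39 mRNA itself was among the best recovered transcripts, with a log2 ratio of IP over input of 2.58 in shRBM39 cells (interval 2.55 to 2.62), against a log2 ratio of 1.36 in shControl cells.

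The shRBM39 input held 22249581 counts and the shRBM39 IP 45812488, with 26537 and 27421 features detected. The 10 most abundant features took 7.18% of the input and 6.88% of the IP. All 12 hepatocyte markers examined were compared, with summed levels of 13474 CPM in the input and 5731 in the IP. Of 12 markers of other cell types, 5 were abundant enough to be compared, and their summed levels were 26.8 and 14.99 CPM. Every ratio below rests on 1 library a side, so no p-value is given, and the 95% intervals (exact, conditional on the 2 counts) cover counting error only.

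Most RNAs were recovered close to their input share. The median log2 ratio of IP over input was 0.02, the middle 50% of features lay between −0.47 and 0.45, and 83.6% were within 2-fold of input. A feature was called higher or lower when it was at least 2-fold from input and its counting interval excluded equality. By this rule 1016 features were higher, 5.29% of those compared, and 1729 were lower, 9.00%. Total-count scaling moved the median from 0.022 to −0.092 and changed the split to 718 and 2164. Extreme ratios were few: 188 features were called at 4-fold or more above input and 365 at 4-fold or more below it, and 84 and 118 passed 8-fold. Clone-named features, pseudogenes and copies made up 286 of the higher and 617 of the lower calls, out of 4383 such features. Some calls depended on how features entered: 1231 features reached 10 counts in the IP but not in the input of shRBM39 cells, and 275 of the 1016 higher calls were among them. Among the 12619 features with at least 200 counts in the shRBM39 libraries together, 543 were higher and 653 lower. At the edge of the count minimum, the 400 features whose second-highest count was 10 had a median log2 ratio of −0.32, and the 201 features at 9, which were not compared, had one of −0.65.

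**Figure D1:**
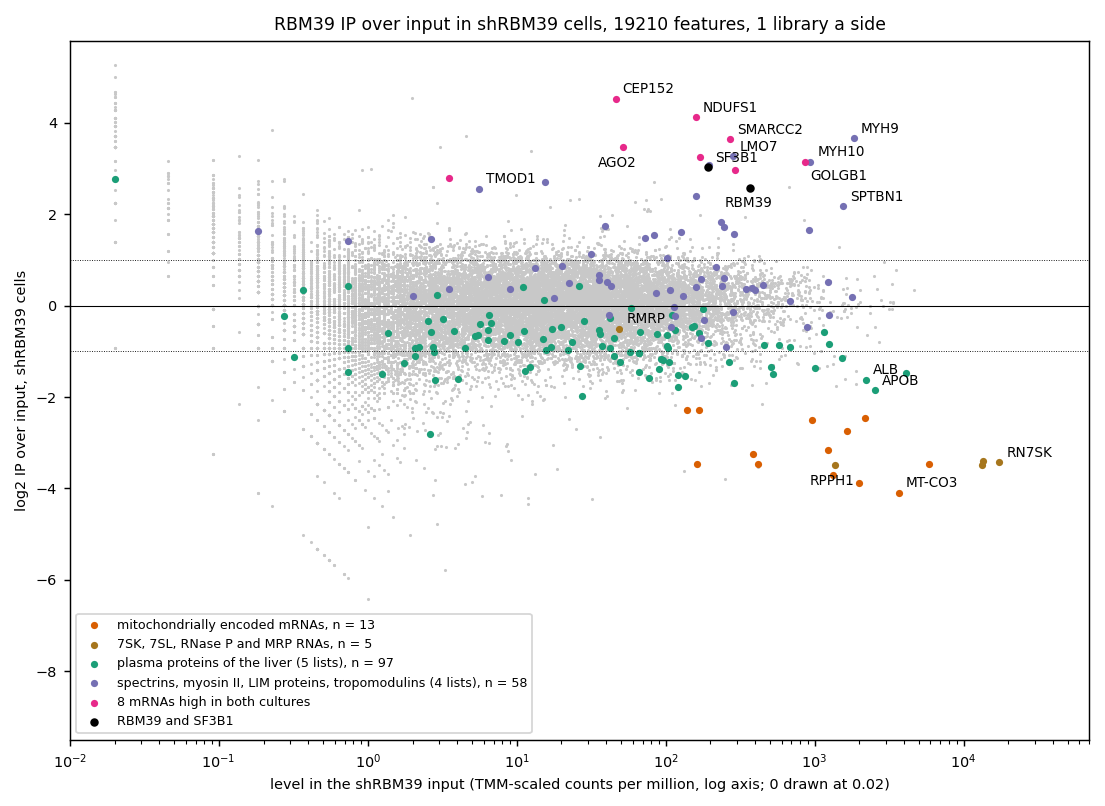
Log2 ratio of IP over input in shRBM39 cells (vertical axis) against the level in the shRBM39 input (horizontal axis, TMM-scaled CPM, log axis); each point is 1 of 19210 features, dotted lines mark 2-fold, and coloured points are the gene groups named in the key. Mitochondrially encoded mRNAs and the 7SK, 7SL and RNase P RNAs lie more than 4-fold below input, most of them at high input levels, while CEP152, NDUFS1 and MYH9 lie above 3 on the log2 scale.

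Of the 25 features that stood highest above input, 20 were named genes and 5 were clone-named or copies. Of the 20 genes, 11 were also called higher in shControl cells, and 8 of these differed by less than 2-fold between the cultures. CEP152, a scaffold of centriole duplication (chr15:48729083-48811069), had 710, 21121, 1004 and 44096 counts. Both IPs were far above both inputs, and the shRBM39 ratio was 23.1-fold (log2 4.53, interval 4.44 to 4.62; shControl 3.83). NDUFS1, the largest subunit of respiratory complex I (chr2:206114817-206159444), had 2650, 90962, 3477 and 115211 counts, a 17.4-fold ratio in shRBM39 cells. The pseudogene GCSHP3 lies within the NDUFS1 span and had a log2 ratio of 3.47 with only 67 input counts, so its reads may not be separable from those of NDUFS1.

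The other 6 of these genes showed the same arrangement, with both IPs above both inputs. SMARCC2, a core subunit of SWI/SNF chromatin remodelling complexes, rose from 270 CPM in the shRBM39 input to 3385 in the IP, 12.5-fold, and from 196 to 2030 in shControl cells. AGO2, the Argonaute protein that cleaves RNA targets, had 1325, 29270, 1123 and 23743 counts, with log2 ratios of 3.47 in shRBM39 and 3.40 in shControl cells. LMTK2, a membrane-bound kinase, had 3086, 56363, 3709 and 67680 counts and a log2 ratio of 3.26. The ratios of these 3 genes lay close together in the cultures. GOLGB1, which encodes the golgin giantin, had 13223, 202198, 18655 and 312275 counts, 8.80-fold in shRBM39 cells, and was one of the 10 most abundant features of the shRBM39 IP. AKAP9, a scaffold for protein kinase A at the Golgi and centrosome, had 4137, 35278, 6400 and 95163 counts and log2 ratios of 2.97 and 2.02. NR3C2, the mineralocorticoid receptor, was much less abundant, with 76, 923, 76 and 1016 counts and a log2 ratio of 2.80 (interval 2.48 to 3.17). Outside these 8, MAPK8IP2, a scaffold of the JNK pathway, was called higher in both cultures but differed by more than 2-fold between them, with 16, 89, 20 and 306 counts and ratios of 2.97 (interval 2.35 to 3.74) and 1.37.

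**Figure D2:**
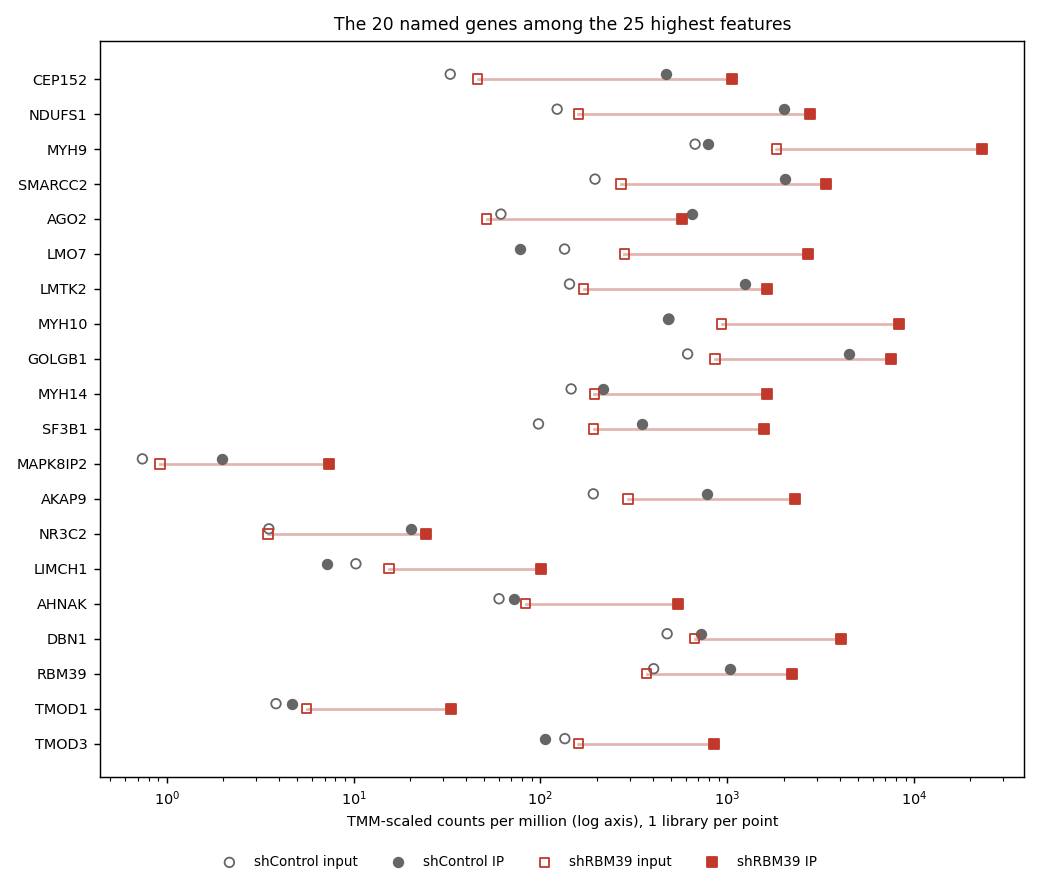
Levels of the 20 named genes among the 25 highest features in all 4 libraries (TMM-scaled CPM, log axis); open marks are inputs, filled marks IPs, circles shControl and squares shRBM39, and a line joins the shRBM39 pair. For CEP152, NDUFS1, SMARCC2, AGO2, LMTK2 and GOLGB1 both filled marks lie far right of both open marks, whereas for MYH9, LMO7, MYH10, LIMCH1 and the tropomodulins only the filled square does.

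The other 9 of the 20 genes were called higher in shRBM39 cells and not in shControl cells. They were DBN1, AHNAK and members of the lists of myosin II chains, actin-bound LIM proteins and tropomodulins, lists that were drawn up with earlier results of these data known. Non-muscle myosin II is the motor that contracts actin bundles, and its 3 heavy chain genes all stood above input. MYH9 (chr22:36281280-36387967) had 14497, 35753, 39837 and 959474 counts. Only the shRBM39 IP was far from the rest: at 23159 CPM it made MYH9 the most abundant feature of that library, 12.7-fold above input (log2 3.66, interval 3.65 to 3.68; shControl 0.23). MYH10 had 10503, 21854, 20270 and 342196 counts, 8.87-fold in shRBM39 cells against a log2 ratio of −0.01 in shControl cells. MYH14 had 3148, 9747, 4236 and 67800 counts, 8.41-fold, against 0.56. The inputs differed as well, since MYH9 was higher in the shRBM39 input than in the shControl input by 1.44 on the log2 scale. MYH10 overlaps NDEL1 (2894, 5648, 3709 and 27826 counts, log2 1.98), and reads of that pair may not be separable.

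A microRNA feature inside MYH9 had a ratio like that of its host. MIR6819, on the same strand as MYH9 at chr22:36286847-36286907, had 0, 10, 5 and 149 counts. Its log2 ratio was 3.84 (interval 2.71 to 5.61), beside 3.66 for its host. Its hairpin, from RefSeq on GRCh38.p14, is printed to show that the feature is a short stretch within the host gene.
MIR6819: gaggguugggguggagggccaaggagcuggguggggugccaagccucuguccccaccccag
Of 43 microRNA hairpin features compared, 31 lay within the span of a compared protein-coding gene. Over the 43 the median log2 ratio was 0.25, with 6 called higher and 6 lower. By RefSeq type 47 compared features were microRNAs, so the 43 are not all of them. Of the 47, 6 were higher (12.8%) and 7 lower (14.9%), against 5.29% and 9.00% over all features. The called hairpins within a gene were picked by their own ratio, so their distance from the host cannot be weighed. Several lay far from it. MIR877 had 2.20 beside 0.34 for ABCF1, MIR4742 3.83 beside 0.22 for WDR26, and MIR1291 −1.48 beside 0.15 for KANSL2. MIR6885 was closer, at 1.02 beside 0.69 for GTF2F1. Each of these had few input counts, and not every called hairpin is listed. MIR6807 had 3.16 (interval 1.10 to 9.08) beside 1.28 for TRIM28. Among hairpins within a gene, those with the most counts lay nearer to their hosts. MIR1282 had −0.18 beside −0.14 for SERF2, and MIR6820 had −0.05 beside −0.03 for POLR2F. MIR6728 had 0.38 beside 0.51 for ENO1 and −0.57 for ENO1-IT1, and MIR302B had −0.26 beside 0.07 for LARP7. How much of the hairpin counts is host transcript was not tested.

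Light chains and regulators of the same motor did not share the height of the heavy chains. Of 15 myosin II chains and kinases, the 3 heavy chains were higher and none was lower. MYL6, MYL9 and MYL12A, which encode light chains, had log2 ratios of 0.52, 0.36 and 0.36, and the kinase genes ROCK1 and ROCK2 had −0.46 and −0.91, with ROCK2 called lower under total-count scaling. Actin mRNAs were also close to input: ACTB had 48838, 175353, 57324 and 141088 counts and a ratio of 0.37, and ACTG1 a ratio of 0.33.

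The mRNAs of several actin-binding proteins were recovered in the same pattern as those of the heavy chains. LMO7, a LIM-domain protein of cell junctions, had 2904, 3505, 6133 and 112482 counts. It was 9.64-fold above input in shRBM39 cells and below input, at −0.80, in shControl cells. LIMCH1, an activator of myosin II, had 222, 327, 337 and 4188 counts and log2 ratios of 2.71 and −0.51. Of 19 actin-bound LIM protein genes, 6 were higher and none lower, with a median of 0.57: LMO7 and LIMCH1 were joined by FHL3 at 1.63, PDLIM2 at 1.41, PDLIM7 at 1.14 and LIMA1 at 1.04. DBN1, which encodes the actin-bundling protein drebrin, had 10275, 32619, 14565 and 167162 counts and a ratio of 2.59. AHNAK, a giant scaffold under the plasma membrane, had 1295, 3259, 1816 and 22472 counts and a ratio of 2.70. For both genes the shControl ratio was small, 0.60 for DBN1 and 0.26 for AHNAK.

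Tropomodulins cap the slow-growing ends of actin filaments, and all 3 compared members were higher. TMOD1 had 83, 211, 122 and 1373 counts (log2 2.56, interval 2.30 to 2.84). TMOD3 had 2914, 4808, 3472 and 35104 counts (log2 2.41, interval 2.36 to 2.46). TMOD2 was scarcer, with 156, 138, 58 and 304 counts, and its ratio of 1.45 (interval 1.05 to 1.89) stood against −1.24 in shControl cells. The shRBM39 IP was the highest library for TMOD1 and TMOD3. For TMOD2 it was level with the shControl input, at 7.34 and 7.23 CPM, and the shRBM39 input was the lowest library, 1.43 below the shControl input on the log2 scale. Tropomyosins, which coat the same filaments, were near input, from −0.20 for TPM4 to 0.44 for TPM2.

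Among spectrins, filamins, actinins and spectraplakins, which cross-link actin and tie it to membranes, 9 of 17 genes were higher and none lower, with a median of 1.48 against 0.02 over all features and 0.00 for the same genes in shControl cells. SPTBN1, the beta chain of non-erythroid spectrin, had 16926, 40874, 33784 and 291093 counts and a ratio of 2.18. SPTAN1, its alpha partner, had 2188, 3870, 2743 and 15871 counts and a ratio of 1.60. UTRN, which encodes utrophin, had 3659, 5690, 5089 and 34262 counts and a ratio of 1.82. In all 3 the shRBM39 IP alone stood out. The actinin genes ACTN1 and ACTN4 had ratios of 1.57 and 1.66, the filamin gene FLNA 1.56, and PLEC 1.48. FLNA and ACTN4 were closer between cultures, at 1.03 and 0.87 in shControl cells. The spectraplakin genes DST and MACF1, at 0.39 and 0.34, and the dystrophin gene DMD, at −0.20, were not called. CGN, which encodes the junction protein cingulin, was the single gene called higher among 28 cadherin and tight junction genes, with 784, 1835, 1610 and 15204 counts and a ratio of 2.31, while 6 of the 28 were lower.

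Of the cytoskeletal lists other than spectrins and their relatives, unconventional myosins had the highest median. Of 16 unconventional myosin genes, which encode cargo and membrane motors, 6 were higher, from MYO5B at 1.03 to MYO7B at 1.52, with a median of 0.83; 4 were with total-count scaling. Keratins, vimentin and lamins had a median of 0.81 with none of 11 called, led by KRT8 at 0.95. Tubulins had a median of 0.67 with 1 of 17 called, TUBA1A at 1.05. Talin, the link between integrins and actin, was the single higher gene among 27 focal adhesion adaptors and kinases: TLN1 had 1954, 8177, 6146 and 27228 counts and a ratio of 1.22. Of 26 Arp2/3, capping and coronin genes, CORO7 at 1.28 and CORO1B at 1.08 were higher and ARPC1A at −1.09 was lower. Of 35 centrosomal CEP genes, CEP170B at 1.27 and CEP131 at 1.05 were higher beside CEP152, while the median was −0.16. The calls of LIMA1, MYO5B, TUBA1A, CORO1B and CEP131 ended with total-count scaling.

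Splicing factor mRNAs, the class to which RBM39 belongs, were mostly a little above input, with few calls. Of 21 genes of the U2 particle and U2AF-type factors, only SF3B1 and RBM39 were higher, and the median was 0.49. SF3B1, the branch-site subunit of the U2 particle, had 2106, 15766, 4196 and 65402 counts, 8.19-fold above input in shRBM39 cells (log2 3.03, interval 2.99 to 3.08; shControl 1.84). Its level was therefore above input in both cultures, with the shRBM39 IP the highest library. U2AF2, SF3B4 and SF3B3 had ratios of 0.94, 0.91 and 0.90, and RBM23, the closest relative of RBM39, one of 0.38. None of 14 SR protein and TRA2 genes was called, with a median of 0.45 and the highest value at SRSF6 (5402, 24620, 9260 and 34576 counts, log2 0.97). None of 27 hnRNP genes was called either, with a median of 0.48. DEAD and DEAH box helicases had a median of 0.41 with none of 49 called. Core spliceosome proteins had a median of 0.11, which falls below 0 when libraries are scaled to total counts, and none of 41 was called. Among 32 other numbered RBM genes 1 was called, RBM44 at −3.04. AGO2 stood alone among 13 Argonaute and microRNA processing genes: AGO1, AGO3 and AGO4 had ratios of −0.13, −0.63 and −0.99, and AGO4 was called lower with total-count scaling.

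Among chromatin regulators, SWI/SNF genes (26.3%) and lysine methyltransferase and demethylase genes (13.2%) had larger shares of higher calls than all features (5.29%). Of 19 SWI/SNF genes 5 were higher: SMARCC2, the ATPase genes SMARCA4 at 1.87 and SMARCA2, SS18 at 1.21 and SMARCD2 at 1.08, the last of which was no longer called with total-count scaling. SMARCA4 had 8820, 80755, 18549 and 129269 counts, so both IPs were above both inputs, and its shControl ratio of 2.13 was the larger. SMARCC1, the paralog of SMARCC2, stayed near input with 9319, 22738, 17094 and 40161 counts and a ratio of 0.30. Of 38 lysine methyltransferase and demethylase genes 5 were higher (2 with total-count scaling), led by the demethylase KDM4B (829, 7131, 1191 and 7546 counts, log2 1.73, shControl 2.04). Zinc finger ZNF genes, the largest family of DNA-binding proteins, had 22 of 454 higher (4.85%) and 8 lower (1.76%), with a median of −0.09. Their share of higher calls was near the 5.29% over all features, and their share of lower calls was below the 9.00%. With total-count scaling 18 were higher and 13 lower.

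RFX1, the transcription factor named in the series title, had 70, 319, 55 and 317 counts and a ratio of 1.59 (interval 1.18 to 2.04), with 1.11 in shControl cells. Both IPs were above both inputs, and the intervals of the cultures overlap. Of 8 RFX family genes RFX1 was the single higher member, and RFX6 at −1.89 the single lower. The gene table counts whole genes and does not resolve RFX1 isoforms. Among 24 AP-1 and immediate early genes, which include partners of RBM39 as a coactivator, 3 were higher and 1 lower. JUND had 1752, 14616, 1708 and 13719 counts, a ratio of 2.08 and a nearly equal 1.99 in shControl cells. JUN, at 0.55, and FOS, at 0.38, were not called. NR4A1 and KLF2 were higher at 1.11 and 1.08, the call of KLF2 ending with total-count scaling, and CYR61, at −1.41, was lower. None of 21 hepatocyte transcription factor genes was called, and HNF4A had 6698 input and 18146 IP counts in shRBM39 cells, a ratio of 0.51.

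The RNAs furthest below input were abundant structured RNAs and the transcripts of mitochondria. RN7SK, the nuclear RNA that holds the elongation factor P-TEFb inactive, had 583158, 15510, 376396 and 66820 counts. It was the most abundant feature of the shRBM39 input and 10.7-fold lower in its IP (log2 −3.42; shControl −6.30). RN7SL1 and RN7SL2, RNA components of the signal recognition particle, were lower by a log2 ratio of −3.40 and −3.48. RPPH1, the RNA of RNase P, which trims tRNA precursors, had 56310, 1982, 29698 and 5003 counts and a ratio of −3.50. RMRP, the RNA of the related RNase MRP, behaved differently in the shRBM39 pair, with 2788, 639, 1060 and 1420 counts and a ratio of −0.51 against −3.19 in shControl cells. The shRBM39 input of RMRP was below the shControl input by 1.41 on the log2 scale. These genes have many copies in the genome, so the split of reads between RN7SK, RN7SL1, RN7SL2 and their pseudogenes is uncertain.

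All 13 mitochondrially encoded mRNAs were lower, from MT-ND4L at −2.28 to MT-CO3 at −4.09, with a median of −3.24. MT-CO3, a core subunit of cytochrome oxidase, had 85644, 3659, 79901 and 8899 counts and was 17.1-fold below input. MT-ATP6, MT-CO2 and MT-CO1 followed at −3.87, −3.72 and −3.46. In each of the 13 the IP was lower than the input in both cultures, and the shControl median was lower still, at −4.83. Mitochondrial tRNAs were lower in 18 of 21 cases, with a median of −2.19. The mitochondrial ribosomal RNAs stood apart from both: MT-RNR1 had 1572, 3706, 1526 and 2832 counts and a ratio of −0.04, and MT-RNR2 had 16591, 57791, 23993 and 51475 counts and a ratio of 0.17.

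**Figure D3:**
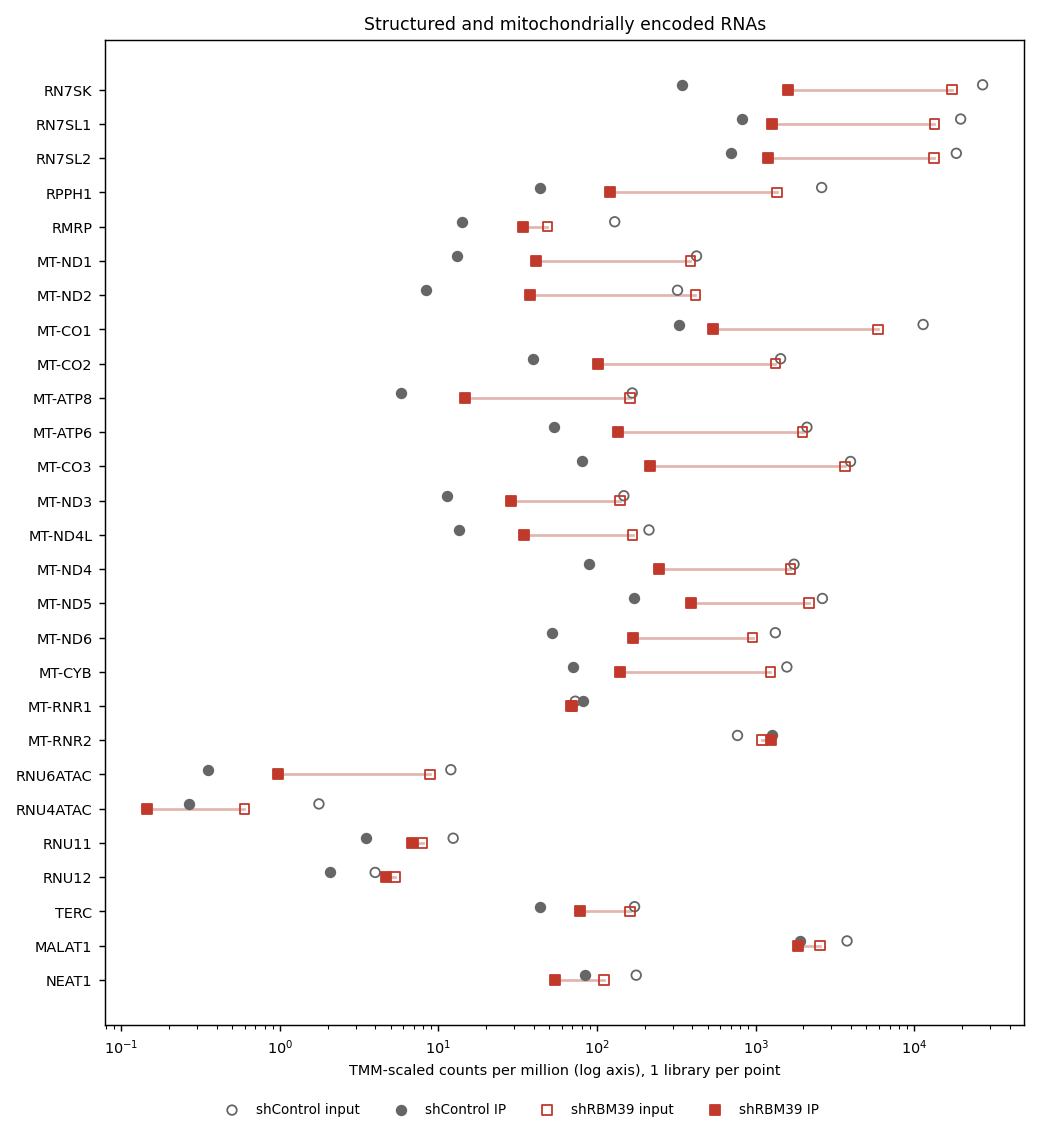
Levels of structured and mitochondrially encoded RNAs in all 4 libraries (TMM-scaled CPM, log axis); open marks are inputs, filled marks IPs, circles shControl and squares shRBM39, and a line joins the shRBM39 pair. Filled marks lie left of open marks for RN7SK, RN7SL1, RN7SL2, RPPH1 and all 13 mitochondrial mRNAs, with the shControl IP furthest left, while MT-RNR1 and MT-RNR2 show no such gap.

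Other small RNAs were lower to a smaller degree. Of 13 spliceosomal snRNA genes compared, 9 were lower and none higher, with a median of −1.48. RNU6ATAC and RNU4ATAC, which serve the minor spliceosome, had ratios of −3.18 and −1.98. RNU11 and RNU12, which recognise minor introns, were near input in shRBM39 cells. They had 267, 158, 173 and 280 counts (−0.24) and 86, 94, 116 and 192 counts (−0.20). In shControl cells RNU11 was called lower, at −1.82, and RNU12 was not called, at −0.94. H/ACA small nucleolar RNAs, guides for pseudouridylation, had 15 of 38 lower, 1 higher and a median of −0.81. C/D small nucleolar RNAs, guides for ribose methylation, had 8 of 44 lower, 2 higher and a median of −0.31. Most snoRNA genes of both classes were too scarce to compare, 85 of the H/ACA and 245 of the C/D genes.

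Abundant long non-coding RNAs were often below input. Of 17 7 were lower and none higher, with a median of −0.77. MALAT1, which is held in nuclear speckles, had 81404, 86490, 55581 and 76186 counts and a ratio of −0.47. NEAT1, the scaffold of paraspeckles, had 3810, 3780, 2403 and 2244 counts and a ratio of −1.03. Both had negative ratios in both cultures, and NEAT1 was called lower in both. TERC, the RNA of telomerase, had a ratio of −1.04, and OIP5-AS1 one of −1.56. Intergenic LINC RNAs had 29 of 175 lower and 6 higher, with a median of −0.40. Antisense RNAs were near the shares over all features (9.00% lower and 5.29% higher), with 56 of 528 lower (10.6%) and 32 higher (6.06%) and a median of −0.11, or 74 lower and 20 higher with total-count scaling. Since the strand setting of the counting was not given in the sources used here, their reads may belong to the gene on the other strand.

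mRNAs of secreted liver proteins were below input. Across 5 lists of plasma protein genes, 35 of 97 compared members were lower and none higher, with a median of −0.88, against −0.28 and 10 lower in shControl cells. Coagulation and complement genes led with 14 of 27 lower and a median of −1.03. CFI, the protease that inactivates complement C3b, had 1173, 1198, 2656 and 1478 counts and a ratio of −1.77. ALB, which encodes albumin, had 63842, 88991, 48104 and 29767 counts and a ratio of −1.62, with −0.59 in shControl cells. AFP, the fetal albumin relative that liver cancers secrete, had 57974, 98952, 88845 and 61062 counts and a ratio of −1.47. The shRBM39 IP was the lowest library for ALB. APOB, the structural protein of very low density lipoprotein, had 87168, 66583, 55096 and 29155 counts and a ratio of −1.85, and MTTP, which loads lipid on it, one of −1.16. Total-count scaling raised the lower calls from 5 to 9 of 25 serpin and inter-alpha-trypsin inhibitor genes and from 5 to 8 of 16 plasma carrier genes. The acute-phase genes CP, FGB and HP had ratios of −1.68, −1.50 and −1.46.

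The mRNAs for the machinery of the secretory pathway were below input too. Of 23 genes of endoplasmic reticulum chaperones 8 were lower and none higher, with a median of −0.80. HSP90B1, the reticulum's HSP90, had 46101, 37208, 41099 and 23987 counts and a ratio of −1.71, and SEL1L, a scaffold of reticulum-associated degradation, one of −1.54. CALR, the lectin chaperone calreticulin, was at −0.63 and was not called. Signal recognition and translocon genes had 5 of 33 lower, including the signal peptidase gene SPCS3 at −1.65 and the oligosaccharyltransferase gene STT3A at −1.45. Lysosomal enzymes and LAMP genes had 8 of 30 lower, with a median of −0.78. Cytosolic chaperones, which do not enter the reticulum, had a median of 0.51 and none of 16 called.

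Membrane and matrix genes followed with smaller shifts. Of 17 integrin subunit genes 5 were lower and 1 higher, with a median of −0.50. ITGB1, the most widely shared beta subunit, had 8947, 6789, 8251 and 4722 counts and a ratio of −1.73, and both IPs were below their inputs (−1.47 in shControl cells). Collagens, laminins and matrix genes had 17 of 53 lower and none higher. Solute carriers outside the mitochondrial SLC25 family had 43 of 216 lower and 7 higher, with a median of −0.39, and SLC16A7, a monocarboxylate carrier, was at −2.17. TMEM genes had 24 of 185 lower and 4 higher, with a median of −0.25. Their share of lower calls was only somewhat above the 9.00% over all features. Among 9 imprinted genes around DLK1 and IGF2, many of them known for fetal growth, 4 were lower and none higher: IGF2 (153960, 66348, 90224 and 54342 counts) at −1.66, DLK1 at −2.05, MEST at −1.46 and IGF2R at −1.09.

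Ribosomal protein mRNAs gave a median of 0.00, with 38 of 76 above 0 and 38 below, which became −0.11 with total-count scaling. None was higher and 4 were lower: RPL12 (35249, 30149, 28824 and 22725 counts, −1.27), RPLP1 (22928, 14545, 16580 and 13296 counts, −1.25), RPS12 (−1.22) and RPS27 (−1.07). These mRNAs are known for a 5′ terminal oligopyrimidine tract, a C followed by further C or T at the first transcribed bases, through which their translation is regulated. The first 30 transcribed bases of the 4 lower mRNAs are printed from RefSeq on GRCh38.p14 so that the tracts can be compared. Beside them are the 4 highest among ribosomal protein mRNAs with a start window, EEF1A1 and EEF2. Other translation lists were not searched for this. Capitals mark the unbroken run of C and T from the annotated start.
RPL12: CCTCTCggctttcggctcggaggaggccaa
RPLP1: CCCCTTTCCTCagctgccgccaaggtgctc
RPS12: CTCTTTCCCTgccgccgccgagtcgcgcgg
RPS27: CCTTTCCggcggtgacgacctacgcacacg
RPL36: CCTTCCgccacggccgtctctggagagcag
RPL7A: CTTTCTCTCTCCTCCCgccgcccaagatgg
EEF2: CTCTTCCgccgtcgtcgccgccatcctcgg
FAU: CTCTTTCTCgactccatcttcgcggtagct
Both ends of this order carried the tract, while RPS15, the next highest at 0.60, did not carry it at its annotated start. RPL36, RPL7A, EEF2 and FAU had ratios of 0.61, 0.62, 0.65 and 0.66. Of 62 ribosomal protein mRNAs with a start window, 41 began with C and at least 4 more C or T. The tract was present in 16 of the 32 above 0 and in 25 of the 30 at or below 0, as a description under TMM scaling. Only a tract at the annotated start itself was scored, here and across all genes. RPL4, RPL10A and RPL27, above 0, and RPS26 and RPS28, below 0, were scored without it. In each of them a run of C and T begins further into the window. How far the annotated starts set this split was not tested. Across protein-coding genes the median was 0.05 for 593 with the tract and 0.06 for 10542 without it, and 4.04% of 27305 RefSeq start windows hold it.

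Several housekeeping groups also stayed near input. Mitochondrial ribosomal proteins had a median of 0.20 with none of 73 called, proteasome subunits 0.31 with none of 37, and aminoacyl-tRNA synthetases 0.40 with none of 37. In shControl cells 10 of the 37 synthetase genes were called higher, with a median of 0.62. In complex I, NDUFS1 was the single called gene of 38, and the median was 0.16. Glycolysis enzymes had a median of 0.54 with none of 17 called, while 8 of these genes were called higher in shControl cells. Cholesterol and fatty acid synthesis genes had 2 of 30 lower, among them MSMO1 at −1.17. Among 22 serine and folate one-carbon genes CBS, at 1.15, was higher and MTHFD2L, at −1.96, was lower. Of 35 mitosis and cyclin genes CDC25B, a phosphatase that activates cyclin-dependent kinases, was the single called gene, at 1.45.

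**Figure D4:**
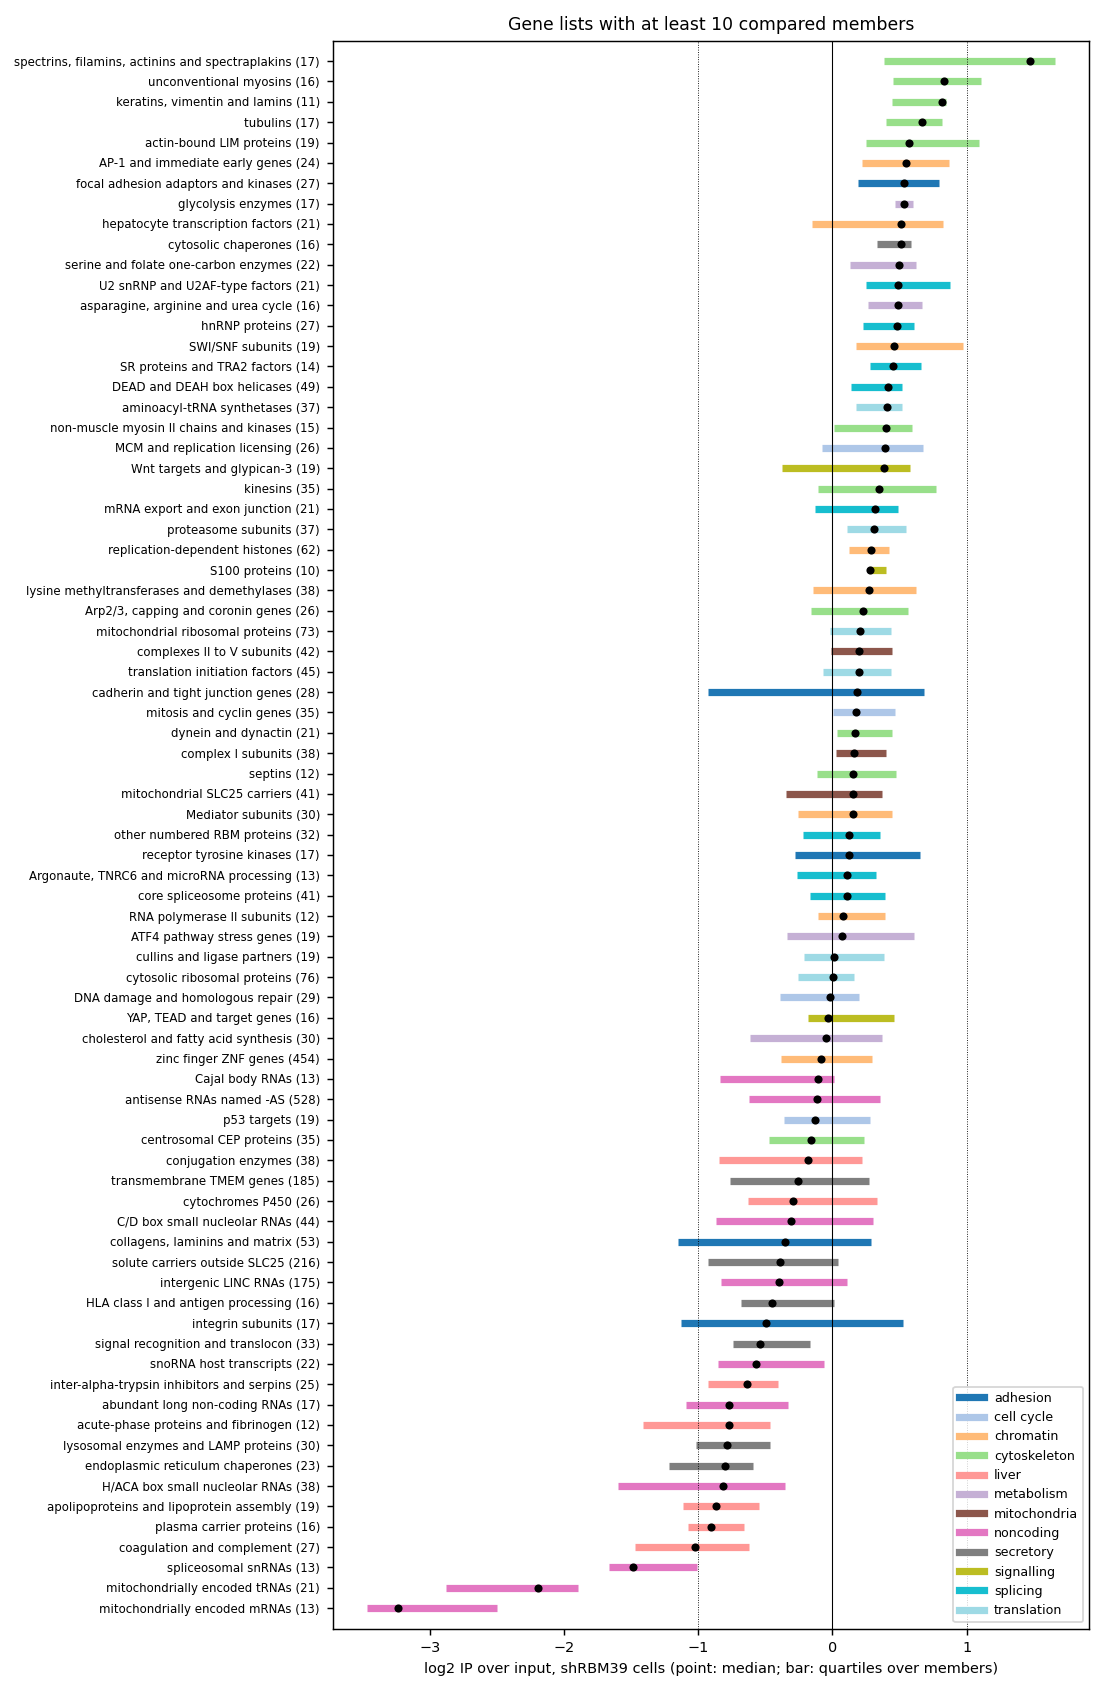
Median log2 ratio of IP over input in shRBM39 cells for gene lists with at least 10 compared members (point: median; bar: quartiles over members; number of members in brackets; colour: section). Spectrins and related actin cross-linkers lie highest at 1.48, most splicing, translation and metabolic lists lie between 0 and 0.54, liver secretory lists lie between −0.64 and −1.03, and mitochondrial mRNAs lie lowest at −3.24.

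Recovery in the shRBM39 culture was set beside that in the shControl culture. Over the 19210 features the log2 ratios had a Spearman correlation of 0.68 and a Pearson correlation of 0.64, given as a description across features that share library depth and length. Of the 1016 features higher in shRBM39 cells, 436 were higher in shControl cells too, 557 were not called there and 23 were lower. Of the 1729 lower features, 979 were lower in shControl cells, 743 were not called and 7 were higher. The difference of the log2 ratios, shRBM39 minus shControl, was at least 1 with a counting interval above 0 for 843 features (4.39%) and at most −1 with an interval below 0 for 526 (2.74%). Scaling to total counts turned this split into 570 and 887, so the balance of directions is set by the scaling.

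The largest positive differences were in the cytoskeletal genes described above and in structured RNAs. LMO7 differed by 4.07 (interval 3.99 to 4.15), MYH9 by 3.43, LIMCH1 by 3.22, MYH10 by 3.16, TMOD3 by 2.76 and MYH14 by 2.51. In the 4 lists of spectrins, myosin II, LIM proteins and tropomodulins together, 18 of 58 genes had a difference called positive by this rule and none had one called negative. Their median ratio was 0.55 in shRBM39 and 0.13 in shControl cells. RN7SK and RMRP had differences of 2.88 and 2.69, but here both IPs were below input and the shRBM39 IP was less far below. All 13 mitochondrial mRNAs shared this direction. SF3B1 and RBM39 mRNA had differences of 1.20 and 1.23.

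Among the negative differences the lowest of the named genes was that of ASB2. ASB2, a subunit of a cullin ubiquitin ligase, had 12, 579, 30 and 182 counts, ratios of 1.65 and 4.47, and a difference of −2.81 (interval −3.79 to −1.83). RGMA, a membrane-anchored guidance molecule, had 42, 1488, 64 and 584 counts and ratios of 2.25 and 4.06. Both mRNAs were above input in both cultures, with the shControl IP the highest library. LARS2, the mitochondrial leucyl-tRNA synthetase, had 357, 1830, 696 and 1224 counts and ratios of −0.11 and 1.29. POR, the reductase that supplies electrons to cytochromes P450, had 821, 4579, 1349 and 2786 counts and ratios of 0.12 and 1.41. AFP and APOE, which encode plasma proteins of the liver, had differences of −1.17 and −1.12, and of the 97 plasma protein genes 11 had a difference called negative and 2 one called positive. APOE had 14101, 35114, 12566 and 13093 counts, with the shControl IP the highest library. Since each culture gave 1 pair of libraries, a difference between cultures and a difference between precipitations cannot be told apart.

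**Figure D5:**
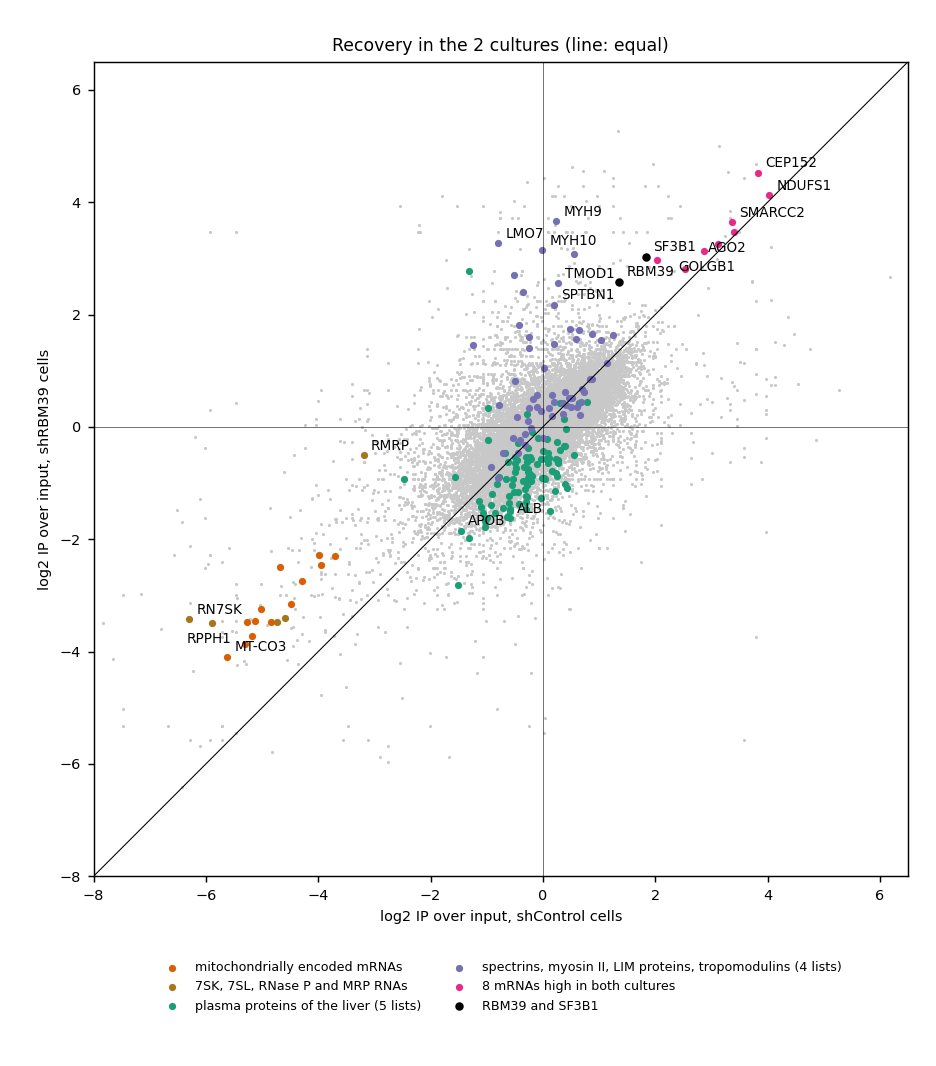
Log2 ratio of IP over input in shRBM39 cells (vertical axis) against the same ratio in shControl cells (horizontal axis) for 19210 features; the diagonal line marks equal recovery and colours mark the gene groups of the key. CEP152, NDUFS1, SMARCC2 and AGO2 lie near the line at high values, LMO7, MYH9 and MYH10 lie far above it at shControl values between −0.80 and 0.23, and RN7SK and the mitochondrial mRNAs lie below 0 on both axes and above the line.

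Recovery varied mildly with gene properties. Among 13567 protein-coding genes the median log2 ratio fell from 0.28 in the quintile with the shortest genomic span to 0.18, 0.07, −0.06 and −0.13 in the quintile with the longest (Spearman rho −0.23, a description across genes). The shortest quintile held 189 higher and 97 lower genes, and the longest held 90 higher and 252 lower. Input level had no such gradient in the ratio (rho −0.02), but calls were more frequent at low input. The quintile with the lowest input level held 278 higher and 292 lower genes, and the one with the highest held 93 and 154. G+C content around the annotated start (250 bases before to 50 after) went the other way, from a median of −0.07 in the poorest quintile to 0.18 in the richest (rho 0.12, 11135 genes). Chromosomes were compared over RefSeq-matched features of all types, not protein-coding genes alone. Features on chromosomes 19 and 22 had a median of 0.36 each and those on chromosome 16 one of 0.33. Those on chromosome 13 had a median of −0.23, and those on chromosomes 4 and 5 one of −0.21. On chromosome 19, 130 of 1059 such features were higher and 26 lower. By RefSeq type, protein-coding genes had a median of 0.06, lncRNAs −0.22 and snoRNAs −0.58. Span, G+C content and chromosome vary together in the genome, and their separate parts in the ratio were not tested.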

How the data were processed

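The deposited values are raw counts by gene symbol, not normalized by the authors: whole numbers that sum to different totals, from 20858382 in the shControl input to 45812488 in the shRBM39 IP. The genome build was hg38 and the tools named were HISAT2 2.0.4, StringTie 1.3.4d and cutadapt 1.9, per the submitters' processing notes. Which program counted, with which annotation and strand setting, was not given in the sources used here. Each of the 4 columns matched 1 sample by name. Of the counts from 3 to 6, 71.4% to 75.6% were even, as when both mates of a pair are counted, so counting intervals are too narrow.

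Features reaching 10 counts or more in any 2 libraries were kept and scaled by TMM over the 4 libraries (edgeR 4.0.16, R 4.3.3; factors 1.03 and 1.09 for input and IP of shControl cells, 0.979 and 0.904 for those of shRBM39 cells). The 7SK and 7SL RNAs made up 4.31% of the shRBM39 input and 0.369% of its IP. Log2 ratios used a pseudocount of 0.5 and 95% Clopper-Pearson intervals; the interval of a difference used the counting standard error (Python 3.11.15, numpy 2.4.6, pandas 2.3.3, scipy 1.17.1). The labels name no replicates, with 1 library per group, so no test between conditions was made. The step was also run on simulated counts that were drawn independently with known changes. Those counts held no paired mates and no variation between cultures, so they do not bear on the width of the intervals here.

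RefSeq on GRCh38 gave coordinates and sequences; 14632 features matched a current symbol and 892 an older one (80.8% together). The members and the 89 gene lists were chosen with earlier results of these data known. Named genes were RFX1 and RBM39, the 25 highest and 25 lowest features with at least 200 counts ranked by the interval bound nearer to 0 (clone-named features and copies only counted), the 10 most abundant of each shRBM39 library, the 4 or fewer members per list with the largest ratios in size, and the 10 highest and 10 lowest differences. Other members were named after their values were seen. A few named genes are not reported here. Alternatives were other scalings (DESeq2 1.42.0 size factors among them), filters, pseudocounts, folds and counts divided by 2.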

Additional observations from a re-analysis of the deposited data

Results flagged for a closer look

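TMOD2, which encodes a tropomodulin, moved in opposite directions in the cultures. Its log2 ratio of IP over input was 1.45 in shRBM39 cells and −1.24 in shControl cells, and both counting intervals lay on their own side of 0. The difference was 2.70 (interval 2.17 to 3.22) and was not tested, since each culture had 1 library of each kind. The shRBM39 input held 58 counts of TMOD2 and the shControl input 156.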

How the results depend on the processing

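The 1016 higher and 1729 lower features became 718 and 2164 with total counts in place of TMM, 1027 and 1721 with DESeq2 size factors, 925 and 1835 with TMM on the shRBM39 libraries alone, and 912 and 1768 with TMM computed without structured and mitochondrial RNAs. Total counts moved the median over all features from 0.022 to −0.092. Counts divided by 2 gave 778 higher and 1396 lower, and a pseudocount of 5 gave 696 and 1721. A 4-fold threshold left 188 higher and 365 lower. Keeping features with at least 1 count in the shRBM39 libraries gave 2820 lower, and leaving out clone-named features and pseudogenes gave 1112 lower. For the difference from shControl, 843 higher and 526 lower became 570 and 887 with total counts, 486 and 258 with counts divided by 2, and 517 and 263 with a pseudocount of 5. Of 377 named genes, total counts left 342 on their side of the threshold, with 19 newly past it and 16 no longer past it. No named gene changed direction while called under the alternatives run. Total counts changed the sign of 9 of 89 list medians, all close to 0, among them ribosomal proteins at −0.11 and cullins and ligase partners at −0.10. No paired analysis was possible because each group has 1 library, and no replicate could be left out. Depth limits scarce features: 1231 reached 10 counts in the shRBM39 IP but not in its input, and 350 in its input but not in its IP.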
